A study of Mus musculus with 31 samples.

Results

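Medium spiny neuron identity genes were followed in the caudate putamen (CPu) of mice labelled female. They are 33 named genes of striatal projection neurons, named for their roles in these cells with earlier results of these mice known, and 32 of them had a value among the 52636 genes measured. Gpr52, a receptor of indirect pathway neurons, could not be matched to an identifier and was not analysed here. All of the other 32 passed the filter on low values in every comparison.

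Medium spiny neurons are the inhibitory output neurons of the striatum and make up the great majority of its neurons. They divide into a direct pathway, which carries the dopamine D1 receptor and the peptide substance P, and an indirect pathway, which carries the D2 receptor and the peptide enkephalin. Transcription factors set this identity in the embryo and several of them remain on in the adult, next to receptors, phosphatases and Ras regulators that few other neurons make at such levels.

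CPu was sequenced in 31 mice, each from a punch of the right side taken on its own with no pooling. The groups were 8 WT and 7 Brd1+/- mice administered vehicle (saline), and 8 WT and 8 Brd1+/- mice administered imipramine (IMN), a tricyclic antidepressant, at 10 mg/kg. All mice were labelled as female and of the strain C57BL/6NTac-Brd1, and the age range in the study's methods, which the labels do not give, is that of young adults. Brd1+/- mice are heterozygous, throughout the body, for a targeted deletion within Brd1, which encodes a chromatin regulator, and their WT controls were litter-matched. Every mouse, vehicle administered ones included, had subcutaneous injections and a tail suspension test, an open field test and a forced swim test before its brain was taken. The study asked how reduced Brd1 changes gene expression and whether IMN alters that. Levels are TPM values, transcript abundances that correct for gene length and so allow genes to be compared. The study gives only a minimum number of reads per sample, so the exact depth behind a value is unknown. The p values rest on the spread between mice alone.

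Brd1 itself checked the genotype labels. WT vehicle mice had 22.5 ± 2.97 TPM (SD, n = 8), Brd1+/- vehicle mice 13.4 ± 2.02 TPM (SD, n = 7), WT IMN mice 19.9 ± 2.67 TPM (SD, n = 8) and Brd1+/- IMN mice 12.8 ± 1.04 TPM (SD, n = 8). The punches differed in how far their genes matched the labelled tissue. The mean log2(TPM + 1) of 10 cortical projection neuron genes was 4.63 to 5.99 in WT vehicle mice 1, 2, 3, 4, 5 and 7, against 0.66 and 0.75 in mice 6 and 8. It was 4.81 and 4.24 in WT IMN mice 5 and 8, 0.71 to 2.77 in the other 6 WT IMN mice, and 0.86 to 3.51 in all 15 Brd1+/- mice. The 8 WT mice above 4 on this scale are called cortex-rich here, and each comparison that includes any of them is also given without them. That leaves 2 WT vehicle and 6 WT IMN mice, a choice made after the values were seen. WT vehicle mouse 7, which the labels call female, also had a sum of 26.8 TPM over 4 Y-linked genes, where no other mouse exceeded 0.19 TPM.

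In Brd1+/- mice under vehicle the members formed an even set. The mean level ran from 4.35 TPM for Gpr149, an orphan receptor, to 1362 TPM for Arpp21, a cAMP-regulated phosphoprotein of medium spiny neurons, and 14 of the 32 were above 100 TPM. The coefficient of variation between these 7 mice had a median of 13.9% over the members. It was lowest for Meis2, a homeobox factor of striatal and other GABAergic neurons, at 4.12%, and highest for Gpr149, at 41.2%. In WT mice under vehicle the median was 70.1%, from 22.7% for Eya1 to 99.1% for Lrrc10b. It was 18.8% in WT and 21.9% in Brd1+/- mice under IMN. The summed level of the members ran from 907 to 6780 TPM over the 8 WT vehicle mice, from 5801 to 6458 TPM over the 7 Brd1+/- vehicle mice, from 3518 to 6535 TPM over the WT IMN mice and from 5037 to 6356 TPM over the Brd1+/- IMN mice. The WT vehicle group thus held both the lowest and the highest sums of all 31 mice.

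**Figure D1:**
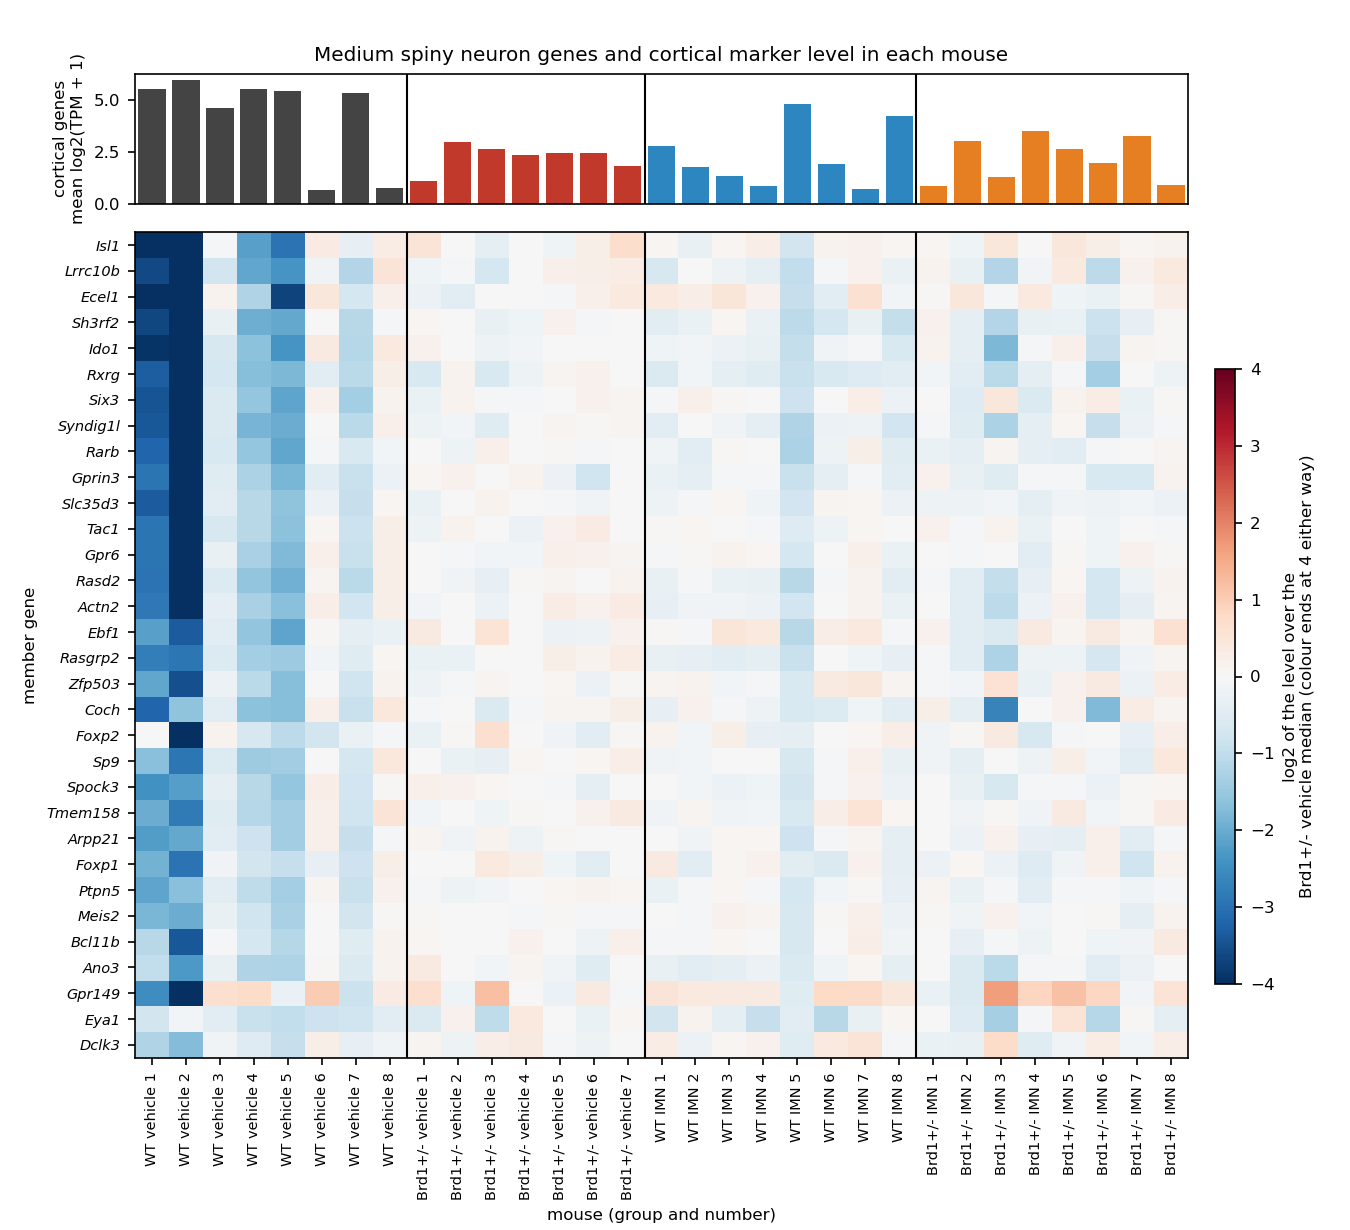
Heat map of the 32 members (rows) in 31 mice (columns, by group and number), as log2 of the TPM over the median of the 7 Brd1+/- vehicle mice, with bars above for the mean log2(TPM + 1) of 10 cortical genes. Columns 1, 2, 4, 5 and 7 of the WT vehicle mice are blue over nearly all genes and stand under high cortical bars, whereas columns 6 and 8 are near white and stand under bars of 0.66 and 0.75.

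Mouse by mouse, the WT vehicle group split. Of the 32 members, 30, 31, 20, 30, 31 and 29 lay below every Brd1+/- vehicle mouse in WT vehicle mice 1, 2, 3, 4, 5 and 7, and 1 did so in each of mice 6 and 8. In mouse 8, 11 members lay above every Brd1+/- vehicle mouse, and in mouse 6, 5 did. Set against the median of the Brd1+/- vehicle mice, the median member stood at 14.2% in mouse 1, 5.50% in mouse 2, 74.9% in mouse 3, 42.4% in mouse 4, 31.6% in mouse 5, 104% in mouse 6, 56.5% in mouse 7 and 111% in mouse 8. Mouse 2 was the lowest, with 20 members under 10% of that median, and its Isl1 was listed at 0. In a punch of mixed tissue, fewer medium spiny neurons and less RNA per neuron cannot be told apart. WT IMN mouse 5 had 29 members and WT IMN mouse 8 had 11 below every Brd1+/- vehicle mouse, while the other 6 WT IMN mice had 0 to 5. None of these counts outside the Brd1+/- vehicle range was made over all genes, so they describe the members only.

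The members did not fall by the same share within a punch. Meis2, Foxp1, Foxp2, Bcl11b, Ptpn5, Arpp21, Rasgrp2 and Actn2 are also known from cortical neurons, and the other 24 members were not listed as such. In WT vehicle mouse 1 the median level was 25.1% of the Brd1+/- vehicle median for these 8 genes and 13.0% for the other 24. In mouse 2 it was 13.3% and 2.71%. In mouse 4 it was 56.9% and 39.2%, and in mouse 5 it was 39.9% and 29.0%. The medians were nearer each other in mouse 3 (78.7% and 74.2%) and mouse 7 (59.5% and 55.1%). In mice 6 and 8 the order was the other way, at 99.5% and 105% in mouse 6 and 107% and 115% in mouse 8. Single genes went their own way. Foxp2, a forkhead factor that deep cortical layers also make, was at 102% in mouse 1 and at 1.16% in mouse 2. Eya1, a phosphatase and transcriptional coactivator, was at 93.4% in mouse 2, the punch in which most members were nearest to 0.

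**Figure D2:**
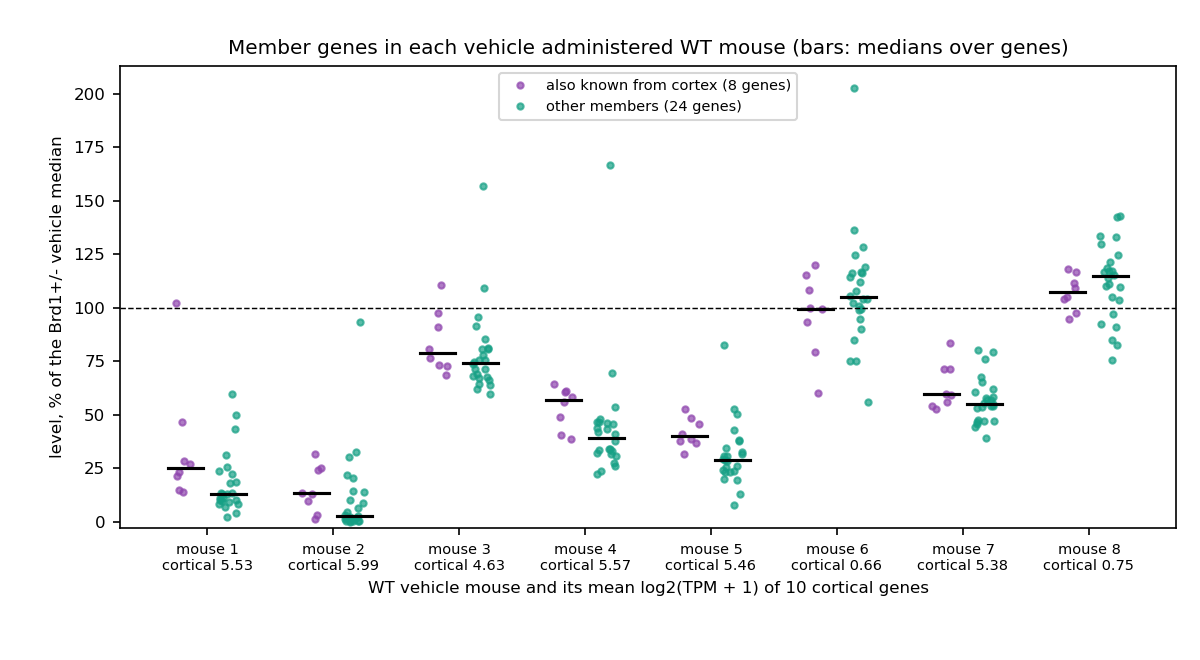
Level of each member in the 8 WT vehicle mice, as a percentage of its median in Brd1+/- vehicle mice (dashed line at 100%), with 8 members also known from cortex and 24 others as separate points and bars at their medians; the cortical mean of each mouse is under its number. Both medians lie under 80% in mice 1, 2, 3, 4, 5 and 7 and near or above 100% in mice 6 and 8.

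The direct pathway members are Tac1, which encodes the precursor of substance P, Isl1, a LIM homeobox factor of direct pathway neurons, Ebf1, a helix-loop-helix factor of their differentiation, and Eya1. The indirect pathway members with a value are Gpr6, a constitutively active receptor, and the factors Sp9 and Six3, which indirect pathway neurons need to form. Promoters of Tac1, Isl1, Gpr6 and Six3 are shown because these genes had the largest differences of their pathways in the comparison of genotypes under vehicle. Each runs from 250 bases before to 50 bases after the start of the transcript, 5′ to 3′ on the strand of the gene, from RefSeq on GRCm38.p6. Capitals mark matches to TGACGTCA (a cAMP response element), GGGCGG (a GC box), CANNTG (an E-box), TATAAA (a core promoter element), TGACAG (the core bound by Meis factors) or TGTTTAC (a forkhead site), on either strand, and no marked match overlaps another.
Tac1: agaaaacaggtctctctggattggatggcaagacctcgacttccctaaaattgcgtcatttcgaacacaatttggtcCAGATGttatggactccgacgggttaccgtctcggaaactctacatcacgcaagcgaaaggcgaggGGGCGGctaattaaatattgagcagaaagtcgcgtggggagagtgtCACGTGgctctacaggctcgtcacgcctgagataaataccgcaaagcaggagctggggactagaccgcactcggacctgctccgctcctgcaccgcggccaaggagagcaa
Isl1: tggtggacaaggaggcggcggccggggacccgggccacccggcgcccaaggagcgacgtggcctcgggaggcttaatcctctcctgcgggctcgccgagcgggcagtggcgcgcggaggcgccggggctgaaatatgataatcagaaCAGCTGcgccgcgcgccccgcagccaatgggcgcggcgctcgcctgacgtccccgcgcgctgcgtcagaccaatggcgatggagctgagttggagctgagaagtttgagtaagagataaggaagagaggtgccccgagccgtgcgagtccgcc
Gpr6: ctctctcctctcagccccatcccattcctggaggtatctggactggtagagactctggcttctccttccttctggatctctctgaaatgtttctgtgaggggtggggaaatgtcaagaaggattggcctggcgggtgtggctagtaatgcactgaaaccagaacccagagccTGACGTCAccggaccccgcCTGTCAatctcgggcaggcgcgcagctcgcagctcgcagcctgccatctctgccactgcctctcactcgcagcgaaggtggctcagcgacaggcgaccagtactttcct
Six3: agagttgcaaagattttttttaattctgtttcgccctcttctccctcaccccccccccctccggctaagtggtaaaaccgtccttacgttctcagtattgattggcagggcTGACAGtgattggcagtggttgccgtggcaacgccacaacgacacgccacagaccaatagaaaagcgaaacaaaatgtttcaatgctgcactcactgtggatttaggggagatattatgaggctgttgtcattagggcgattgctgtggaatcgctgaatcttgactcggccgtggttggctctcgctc
The Tac1 promoter (chr6:7554811-7555110, + strand) held E-boxes starting at -173 and -61 and a GC box at -107, counted from the start of the transcript. Isl1 (chr13:116309639-116309938, - strand) held 1 E-box at -103. Gpr6 (chr10:41072241-41072540, - strand) held a cAMP response element at -78 and a TGACAG match on the opposite strand at -59. Six3 (chr17:85620584-85620883, + strand) held TGACAG at -139. Over the 24 members with a promoter in RefSeq (40 promoters), the cAMP response element was found in 1 gene, Gpr6, and in 1.79% of all 32851 promoters of this length. The GC box was in 12 of the 40 member promoters and 35.7% of all, the E-box in 26 of 40 and 72.3%, TATAAA in 4 of 40 and 13.6%, TGACAG in 10 of 40 and 19.2%, and TGTTTAC in 0 of 40 and 3.65%. These are counts of letters and describe the windows only.

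Under vehicle, medium spiny neuron genes had higher mean levels in Brd1+/- than in WT mice, and few passed the test. All 32 had a positive log2 fold change, on the log2(TPM + 1) scale, with a median of 1.12 against -0.13 over all 23200 genes tested. At p under 0.01, 5 of 32 rose (Ebf1, Ptpn5, Meis2, Arpp21 and Rasgrp2), where 1.47% of all genes tested were called higher. At p under 0.05, 30 of 32 were higher, where 4.68% of all genes were. With limma and an FDR of 5%, 0 members and 0% of all genes were called, and the adjusted p of the members ran from 0.0571 to 0.419. That 0 depended on the setting, for members and for all genes. With array quality weights 29 members and 6854 of 23200 genes passed this FDR, and in 1 fit of all 4 groups 28 members and 4963 of 25394 genes did. That fit uses 1 variance per gene for all groups, although the members spread most in WT vehicle mice. Without WT vehicle mouse 6 it was 21 members and 4563 of 22955 genes, and without mouse 8 it was 23 members and 5482 of 22991 genes. Mice 6 and 8 are the only 2 WT vehicle mice that were not cortex-rich. With a filter on a mean of at least 1 TPM it was 1 member, Ebf1, and 1833 of 17475 genes. The groups overlapped for all 32 members, and for 30 of them every Brd1+/- mouse lay above the WT median. Neither count was made over all genes. The other striatal genes listed, such as Drd1, Drd2, Penk and Ppp1r1b, were 14 of 14 positive, from 0.78 for Chrm4 to 1.98 for Drd2, with 4 higher at p under 0.01. The 10 cortical genes were all negative, with a median of -2.10, 2 of them lower at p under 0.01 where 12.1% of all genes were called lower, and summed levels of 9.48 to 1933 TPM in WT and 17.1 to 229 TPM in Brd1+/- mice. Without the 6 cortex-rich WT mice, 8 of 32 members were positive, the median was -0.13 and 0 were higher and 1 lower at p under 0.01, where 0.659% of all genes were higher and 0.232% lower. With all mice kept and the mean of the cortical genes as a covariate, 31 of 32 were positive, with a median of 0.43 and 0 past p of 0.01, where 0.125% of all genes were higher and 1.81% lower. Without WT vehicle mouse 7, 4 of 32 were higher at p under 0.01, as were 1.21% of all genes.

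Among the direct pathway members, Tac1 ran from 6.16 through a median of 254 to 582 TPM in WT and from 421 through 497 to 620 TPM in Brd1+/- vehicle mice. WT mice 6 and 8 lay within the Brd1+/- range, and the other 6 were all below it. The log2 fold change of Tac1 was 1.65 ± 0.71 (SE) (adjusted p = 0.132 by limma), and 1.00 without WT vehicle mouse 2. Isl1 ran from 0 through 6.55 to 16.1 TPM in WT and from 9.82 through 12.9 to 20.9 TPM in Brd1+/- mice, so WT mice 3 and 7 also overlapped the Brd1+/- range. Its log2 fold change was 1.53 ± 0.59 (adjusted p = 0.0987 by limma). Ebf1 ran from 0.621 through 3.41 to 6.52 TPM in WT and from 5.36 through 6.28 to 9.07 TPM in Brd1+/- mice. Only mouse 6 of the WT group reached the Brd1+/- range. Ebf1 rose by 1.01 ± 0.30 (adjusted p = 0.0571 by limma), the smallest p of the members. Eya1 ran from 3.12 through 3.60 to 5.77 TPM in WT and from 3.03 through 6.18 to 8.05 TPM in Brd1+/- mice, with all 8 WT mice inside the Brd1+/- range. Its log2 fold change of 0.40 ± 0.17 (adjusted p = 0.123 by limma) was the smallest of the 32. In the 2 WT mice low in cortical genes the values of Tac1 and Isl1 lay within the Brd1+/- range. The log2 fold changes against these 2 alone were -0.12 ± 0.14 for Tac1, -0.16 ± 0.23 for Isl1, 0.17 ± 0.19 for Ebf1 and 0.38 ± 0.27 for Eya1, with adjusted p by limma from 0.945 to 0.956.

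**Figure D3:**
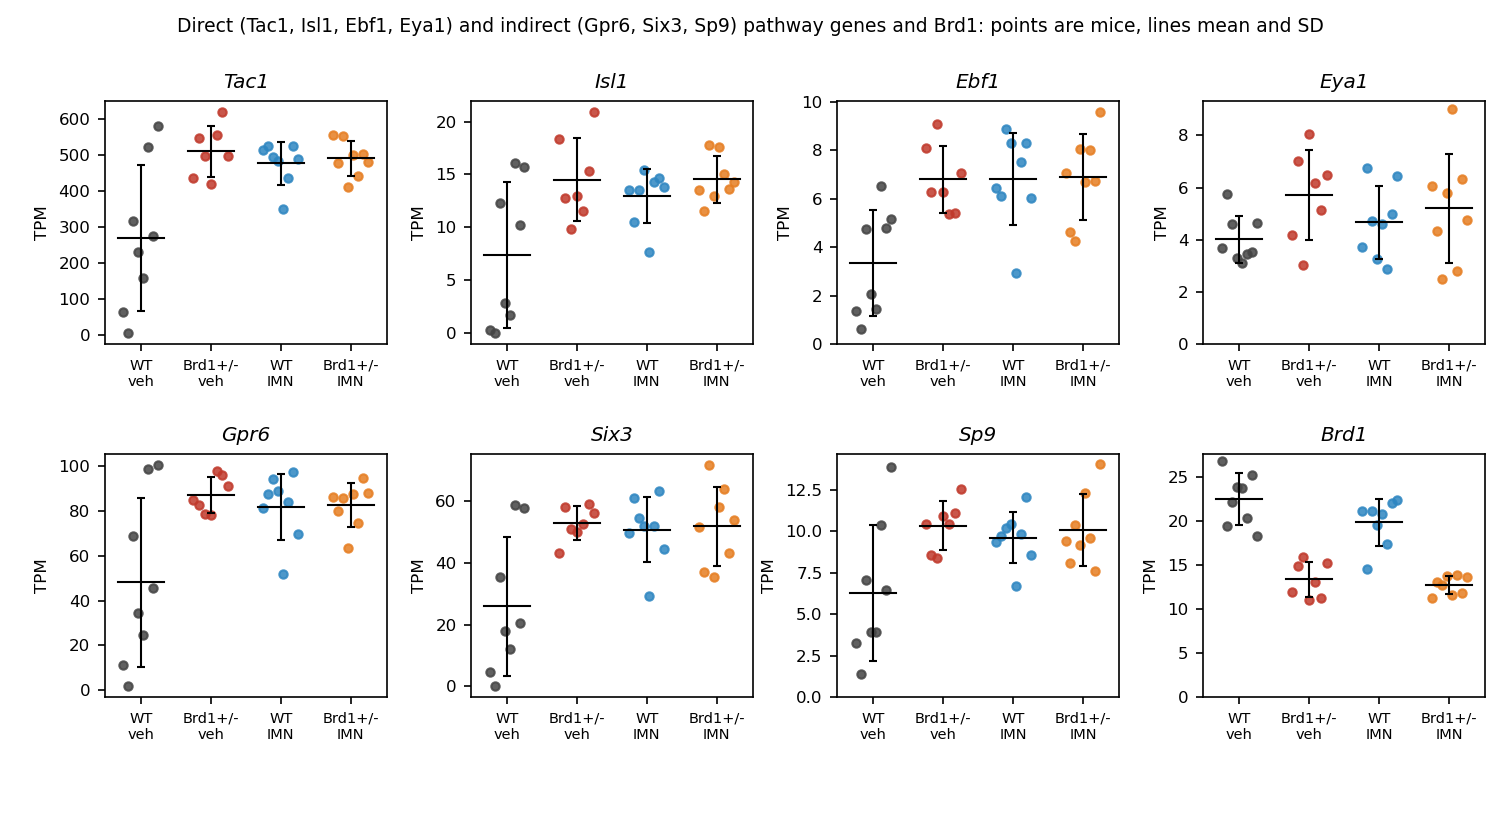
TPM of the direct pathway members Tac1, Isl1, Ebf1 and Eya1, the indirect pathway members Gpr6, Six3 and Sp9, and Brd1, by group; points are mice, horizontal lines group means and bars the SD. In WT vehicle mice the pathway members other than Eya1 spread from near 0 to the level of the other groups (Tac1 from 6.16 to 582 TPM), while Brd1 is lower in both Brd1+/- groups.

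The indirect pathway members had like values. Gpr6 ran from 1.86 through 40.1 to 100.4 TPM in WT and from 78.1 through 84.6 to 97.6 TPM in Brd1+/- vehicle mice, with a log2 fold change of 1.46 ± 0.60 (adjusted p = 0.115 by limma). It was 0.97 without WT vehicle mouse 2. WT mice 6 and 8, at 98.4 and 100.4 TPM, were above every Brd1+/- mouse and the other 6 were below. Six3 ran from 0.0259 through 19.1 to 58.7 TPM in WT and from 43.3 through 52.5 to 59.1 TPM in Brd1+/- mice (1.76 ± 0.67, adjusted p = 0.0971 by limma). Sp9 ran from 1.42 through 5.21 to 13.9 TPM in WT and from 8.37 through 10.4 to 12.6 TPM in Brd1+/- mice (0.83 ± 0.30, adjusted p = 0.0836 by limma). For both factors, too, the WT values that reached the Brd1+/- range were those of mice 6 and 8.

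The other members that rose were signaling genes and a factor. Ptpn5 encodes STEP, a striatum-enriched tyrosine phosphatase, and ran from 160.2 through 355 to 768 TPM in WT and from 605 through 689 to 767 TPM in Brd1+/- vehicle mice, a rise of 0.90 ± 0.28 (adjusted p = 0.0631 by limma). Meis2 ran from 68.5 through 160.0 to 283 TPM in WT and from 256 through 271 to 283 TPM in Brd1+/- mice, a rise of 0.84 ± 0.27 (adjusted p = 0.0653 by limma). Arpp21 rose by 0.96 ± 0.31 (adjusted p = 0.0659 by limma) from a WT range of 289.9 to 1572 TPM. Rasgrp2, an exchange factor for Rap and Ras, rose by 1.19 ± 0.39 (adjusted p = 0.0679 by limma) from a WT range of 20.4 to 157 TPM. In each of the 4, WT mice 6 and 8 lay within or above the Brd1+/- range and the other 6 WT mice below it. These 4 are among the members also known from cortex, which had a median log2 fold change of 0.92 where the other 24 members had 1.41. By role, and with 1.47% of all genes called higher, 2 of 12 transcription factors, 0 of 3 receptors and G-protein regulators, 3 of 7 signaling genes, 0 of 4 peptide and secreted genes and 0 of 6 membrane and cytoskeletal genes rose at p under 0.01. The largest log2 fold change was that of Lrrc10b, a leucine-rich repeat gene, at 2.04 ± 0.83 (adjusted p = 0.112 by limma), and the smallest after Eya1 was that of Gpr149, at 0.46 ± 0.38 (adjusted p = 0.419 by limma). Leaving out WT vehicle mouse 2 brought the largest value of any member to 1.33.

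**Figure D4:**
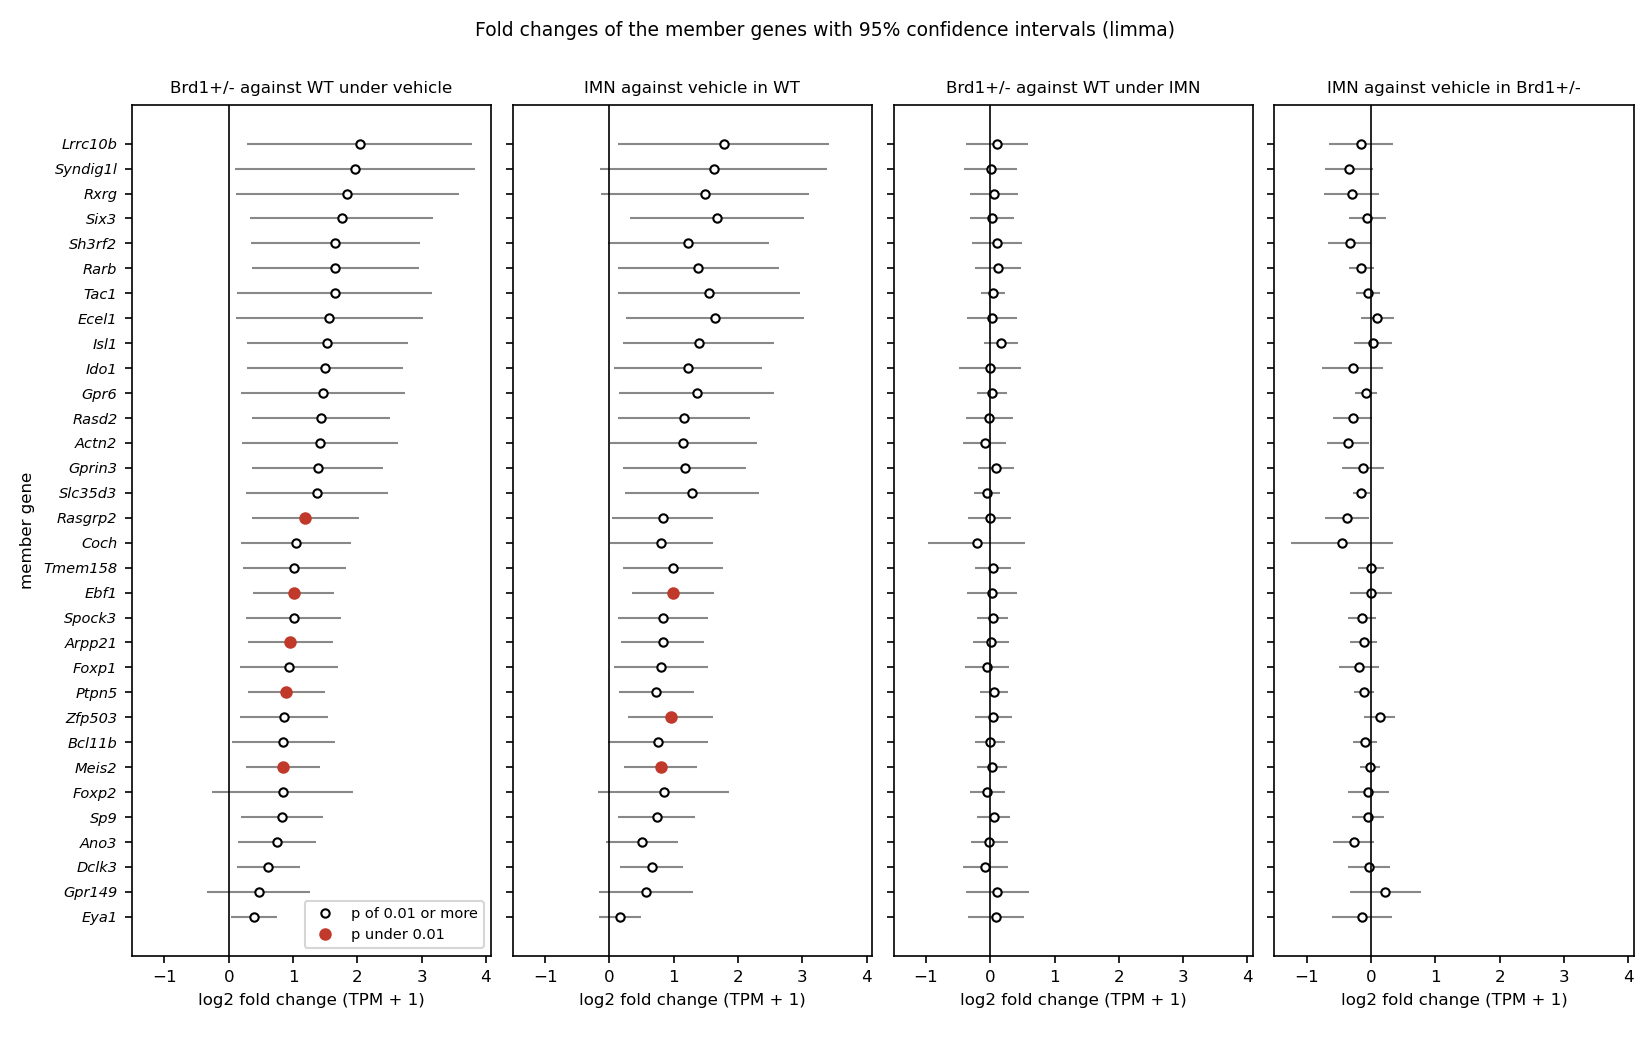
Log2 fold changes on the log2(TPM + 1) scale of the 32 members in 4 comparisons, with 95% confidence intervals from limma; red points have p under 0.01 and open points 0.01 or more. All points lie right of 0 in the vehicle genotype comparison (median 1.12) and in the IMN comparison of WT mice (median 0.98), which share the WT vehicle mice, and around 0 in the other panels.

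Under IMN, medium spiny neuron genes showed no difference between the genotypes that passed the test. Of the 32 members, 21 were higher and 11 lower in Brd1+/- mice, with a median log2 fold change of 0.03 against -0.03 over all 23339 genes tested. At p under 0.01 and at p under 0.05, 0 members were called, where 0.703% and 3.92% of all genes were, and at an FDR of 5% 0 members and 0.00428% of all genes were (limma). The smallest p was that of Isl1, which ran from 7.70 through 13.7 to 15.4 TPM in WT and from 11.5 through 13.96 to 17.8 TPM in Brd1+/- mice. Its log2 fold change was 0.17 ± 0.12 (adjusted p = 0.998 by limma). The 95% confidence interval lay within a log2 fold change of 1 in either direction for all 32 members, and reached from -0.96 for Coch to 0.60 for Gpr149 at the outermost. Tac1 (0.04 ± 0.09), Ebf1 (0.03 ± 0.18), Eya1 (0.09 ± 0.20), Gpr6 (0.02 ± 0.11), Sp9 (0.05 ± 0.12) and Six3 (0.02 ± 0.16) had log2 fold changes smaller than their SE. So did Rarb, the retinoic acid receptor beta (0.12 ± 0.17), Gprin3, a regulator of D2 receptor signaling (0.09 ± 0.14), Coch, a secreted matrix protein (-0.21 ± 0.36), Actn2, an actin crosslinker of spines (-0.09 ± 0.16), and Slc35d3, a sugar nucleotide transporter that affects D1 receptor traffic (-0.05 ± 0.10). The cortical genes had a median of -0.16 here, with 3 of 10 positive. Without WT IMN mice 5 and 8, 4 of 32 members were positive, with a median of -0.09, and 0 passed p of 0.01, where 0.323% of all genes were higher and 0.411% lower.

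From vehicle to IMN in WT mice, all 32 members were higher, with a median log2 fold change of 0.98 against -0.08 over all 23579 genes tested. Ebf1, Zfp503 and Meis2 rose at p under 0.01, which makes 3 of 32 where 1.35% of all genes were called higher. At p under 0.05, 24 of 32 were higher, where 5.17% of all genes were. At an FDR of 5% by limma, 0 members and 0.00424% of all genes were called, with adjusted p from 0.141 to 0.551. With array quality weights 21 members and 4857 of 23579 genes passed this FDR, in 1 fit of all 4 groups 16 members and 2291 of 25394 genes, and without WT vehicle mouse 8 it was 6 members and 2459 of 23391 genes. Without WT vehicle mouse 6 it was 1 member and 1176 of 23391 genes. The limits given above for the 1 fit and for leaving out mice 6 and 8 hold here too. This comparison shares the WT vehicle mice with the comparison of genotypes under vehicle, so the likeness of the values is not independent. Ebf1 ran from 0.621 through 3.41 to 6.52 TPM under vehicle and from 2.94 through 6.96 to 8.85 TPM under IMN, a rise of 0.98 ± 0.30 (adjusted p = 0.141 by limma). Zfp503, a zinc finger factor of striatal development, ran from 0.81 through 4.86 to 10.2 TPM under vehicle and from 6.04 through 9.95 to 12.6 TPM under IMN, a rise of 0.95 ± 0.31 (adjusted p = 0.141 by limma). Meis2 rose by 0.80 ± 0.27 (adjusted p = 0.141 by limma). In all 3, the lowest IMN value was that of WT IMN mouse 5, and it lay inside the vehicle range.

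Tac1, at 349.8 to 527 TPM under IMN, had a log2 fold change of 1.55 ± 0.67, Isl1 of 1.39 ± 0.55, Gpr6 of 1.36 ± 0.57, Six3 of 1.67 ± 0.64 and Sp9 of 0.73 ± 0.29, with adjusted p by limma from 0.159 for Six3 to 0.185 for Tac1. Eya1, at 2.88 to 6.74 TPM under IMN, had 0.16 ± 0.15 (adjusted p = 0.551 by limma). Leaving out WT vehicle mouse 2 gave 0.91 for Tac1 and 0.86 for Gpr6. The other striatal genes had 14 of 14 positive, a median of 1.34 and 1 higher at p under 0.01. The cortical genes had 10 of 10 negative and a median of -2.08, with summed levels from 8.77 to 1101 TPM under IMN. Without the 8 cortex-rich WT mice, 10 of 32 members were positive, with a median of -0.16, and with the cortical mean as a covariate in all mice 32 of 32 were, with a median of 0.36. Without those mice, 0 were higher and 2 were lower at p under 0.01, Ido1 at -0.51 and Actn2 at -0.36, where 1.37% of all genes were higher and 0.715% lower. Ido1, an enzyme of tryptophan breakdown, was at 31.3 and 31.7 TPM in WT vehicle mice 6 and 8, above all other mice. Those values rest on 2 vehicle mice. Without WT vehicle mouse 7 alone, 2 of 32 were higher at p under 0.01, as were 1.26% of all genes.

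From vehicle to IMN in Brd1+/- mice, where no punch was above 4 on the cortical scale, 0 members passed p of 0.01. Of the 32, 6 were higher and 26 lower, with a median log2 fold change of -0.12 against 0.01 over all 23020 genes tested. At that threshold 0.964% of all genes were called lower. At p under 0.05, 3 members were lower, where 3.42% of all genes were, and at an FDR of 5% by limma 0 members and 0% of all genes were called. The 3 were Slc35d3, Actn2 and Rasgrp2. Slc35d3 ran from 30.3 through 36.2 to 40.1 TPM under vehicle and from 27.8 through 31.6 to 33.6 TPM under IMN, a log2 fold change of -0.15 ± 0.06 (adjusted p = 0.654 by limma). Actn2 ran from 75.5 through 89.3 to 112 TPM and from 43.3 through 73.4 to 100.3 TPM (-0.36 ± 0.16, adjusted p = 0.665 by limma). Rasgrp2 ran from 124 through 149.7 to 183 TPM and from 64.3 through 131 to 162 TPM (-0.37 ± 0.16, adjusted p = 0.669 by limma). The groups overlapped for all 3, and the lowest IMN values of Actn2 and Rasgrp2 were both those of mouse 3. The largest positive values were those of Gpr149 (0.22 ± 0.26), Zfp503 (0.14 ± 0.11) and Ecel1, a neuronal peptidase (0.10 ± 0.12), with p from 0.25 to 0.43 in limma. Tac1 (-0.05 ± 0.09), Isl1 (0.03 ± 0.14), Ebf1 (0.00 ± 0.15), Eya1 (-0.15 ± 0.22), Gpr6 (-0.08 ± 0.08), Six3 (-0.06 ± 0.14) and Sp9 (-0.05 ± 0.12) had p of 0.335 or more in limma. The confidence interval lay within a log2 fold change of 1 for 31 of 32 members, all but Coch. The other striatal genes had 14 of 14 negative with a median of -0.21. Of them, 7 were lower at p under 0.05, where 3.42% of all genes were, and 1 at p under 0.01. That was Drd1, which encodes the D1 receptor, at -0.19 ± 0.06 (adjusted p = 0.516 by limma). The oligodendrocyte genes stood 5 of 5 positive beside this, with a median of 0.46 and summed levels of 835 to 2524 TPM under vehicle and 792 to 4445 TPM under IMN, and their part in it was not tested.

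The interaction of genotype and IMN, which asks whether IMN acted differently in Brd1+/- than in WT mice, was negative for all 32 members. The median was -1.23 against 0.09 over all 25394 genes tested. Rasgrp2 (-1.20 ± 0.43), Meis2 (-0.82 ± 0.30) and Ebf1 (-0.98 ± 0.36) passed p of 0.01, which makes 3 of 32 where 0.78% of all genes were called lower. At p under 0.05, 29 of 32 were lower, where 3.68% of all genes were. At an FDR of 5% by limma 0 members and 0% of all genes were called, and the adjusted p of those 3 was 0.261. With array quality weights 21 members and 2624 of 25394 genes passed this FDR. Tac1 (-1.60 ± 0.73), Isl1 (-1.36 ± 0.61), Gpr6 (-1.44 ± 0.62), Six3 (-1.73 ± 0.70) and Sp9 (-0.78 ± 0.33) had p from 0.0198 to 0.0356 in limma, and Eya1 had -0.31 ± 0.27 (adjusted p = 0.587). The term contains the WT vehicle mice, as both comparisons with higher members do. Leaving out WT vehicle mouse 2 gave -0.96 for Tac1 and -0.94 for Gpr6. The 10 cortical genes had the opposite sign, 10 of 10 positive with a median of 1.95. Without the 8 cortex-rich WT mice, 18 of 32 members were positive, with a median of 0.02, and 0 passed p of 0.01 or of 0.05, where 0.259% of all genes were higher and 0.338% lower at p under 0.01. With the cortical mean as a covariate in all mice, 31 of 32 were negative, with a median of -0.72 and 0 past p of 0.01, where 0.701% of all genes were higher and 0.276% lower. Without WT vehicle mouse 7, 2 were lower at p under 0.01, as were 0.855% of all genes.

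Apart from Eya1, direct and indirect pathway members were lowest in the same WT vehicle punches. The mean log2(TPM + 1) of the 4 direct members minus that of the 3 indirect members averaged -0.39 ± 0.47 (SD, n = 8) for WT vehicle mice, -0.59 ± 0.10 (SD, n = 7) for Brd1+/- vehicle mice, -0.62 ± 0.14 (SD, n = 8) for WT IMN mice and -0.57 ± 0.23 (SD, n = 8) for Brd1+/- IMN mice. With all mice kept, the group means differed by less than the SD of the WT vehicle mice. WT vehicle mice 6 and 8, the 2 low in cortical genes, were at -0.80 and -0.89. Both lay below all 7 Brd1+/- vehicle mice, which ran from -0.72 to -0.48. The 6 WT IMN mice low in cortical genes ran from -0.75 to -0.63, and the Brd1+/- IMN mice from -0.99 to -0.24. The difference was negative in 30 of 31 mice, the exception being WT vehicle mouse 2 at 0.63, the punch in which Eya1 stood at 5.77 TPM while Gpr6 was at 1.86 and Six3 at 0.0259 TPM. Without that mouse, the WT vehicle mean was -0.53. The most negative value was that of Brd1+/- IMN mouse 3, at -0.99. No test was made of this difference, since the members were chosen with results known. Its sign rests on the levels of the genes picked, with Gpr52 missing, so it does not measure the balance of the pathways.

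**Figure D5:**
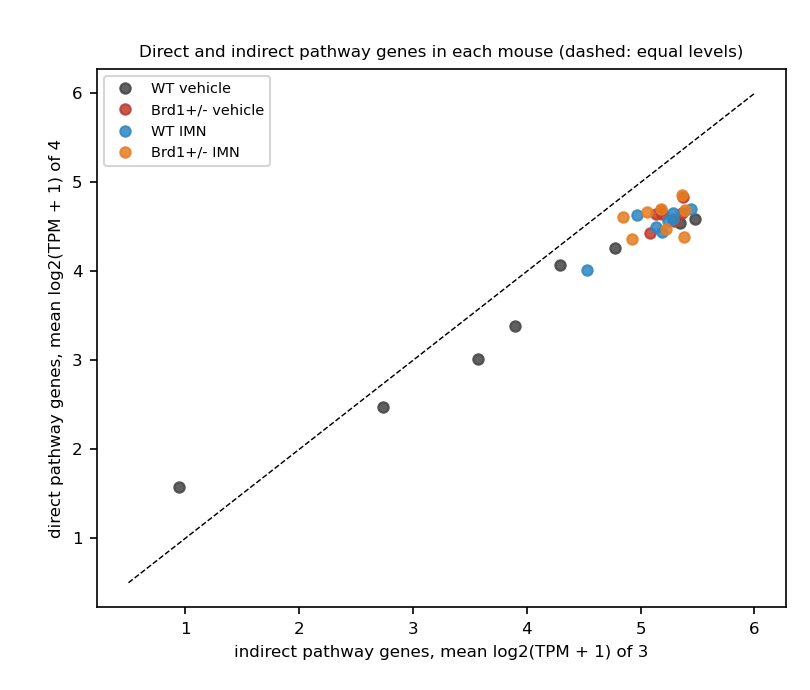
Mean log2(TPM + 1) of the 4 direct pathway members (vertical axis) against that of the 3 indirect pathway members (horizontal axis), 1 point per mouse, coloured by group, with a dashed line of equal levels. The WT vehicle mice reach down to 1.57 (direct) and 0.94 (indirect), the other groups lie at 4.01 (direct) and 4.53 (indirect) or higher, and all mice but WT vehicle mouse 2 lie below the line.

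Markers of other cell types also varied between the punches. Summed over 5 cholinergic interneuron genes, which mark another striatal neuron, the level was 0.898 to 59.1 TPM in WT and 34.5 to 62.7 TPM in Brd1+/- vehicle mice, with a median log2 fold change of 1.16 and 0 of 5 past p of 0.01. Chat, the acetylcholine-synthesizing enzyme, was listed at 0 in WT vehicle mouse 1. Astrocyte genes had a median of -0.27 and oligodendrocyte genes of -0.36 in that comparison, all 10 of them negative and 0 past p of 0.01. Their summed levels were 208 to 485 TPM and 797 to 5693 TPM in WT and 229 to 296 TPM and 835 to 2524 TPM in Brd1+/- mice. Endothelial and mural genes had a median of 0.08. The part of these cell types in the members' values was not tested. Among the cortical projection neuron genes, Emx1 was listed at 0 in WT vehicle mouse 6 and Neurod1 in mouse 8.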

How the data were processed

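Punches of CPu from 31 mice labelled female were sequenced singly by RNA-seq. The authors trimmed reads with Trimmomatic after FastQC, aligned them to GRCm38 with HISAT2 2.1.0 and deposited StringTie 1.3.4 abundances in TPM for 52636 Ensembl genes. TPM keeps no read depth, so no count test and no counting error could be given, and precision rests on the number of mice. Symbols from the GENCODE M21 annotation matched 52403 identifiers. No column was left unused.

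Genes above 0.1 TPM in at least 7 mice of a comparison were tested on log2(TPM + 1) with limma 3.58.1 in R 4.3.3 (trended variance, two-sided), in a separate fit per pair of groups and 1 fit of all groups for the interaction, with Benjamini-Hochberg adjustment over all genes tested. Calls use the nominal p of 0.01 that the study used, beside 0.05 and an FDR of 5%. The procedure was tested on simulated data. Tables and figures were made with Python 3.11.15, pandas 2.3.3 and matplotlib 3.10.9. The mice are separate animals. The members and lists were chosen with earlier results of these data known, and the genes named are the direct and indirect pathway members and, per comparison, up to 3 members with the smallest p in each direction, beside members of small counts or singled out after their values were seen. Alternatives were another pseudocount, filter and scaling, quality weights, a replicate block, 1 fit of all groups, a cortical covariate, leaving out each mouse and, added after seeing the data, mice low in cortical genes only.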

Additional observations from a re-analysis of the deposited data

Results flagged for a closer look

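Of 128 sets of values (32 members in 4 groups), 5 held a mouse far from the others of its group, where chance alone gives about 1 in 20. In Brd1+/- vehicle mouse 3, Foxp2 stood at 40.5 TPM, the highest of its group, and Coch at 66.1 TPM, the lowest. In WT IMN mouse 5, a cortex-rich punch, Gpr149 stood at 2.47 TPM and Slc35d3 at 21.3 TPM, both the lowest of their group. In Brd1+/- IMN mouse 8, Bcl11b, a zinc finger factor of medium spiny neurons, stood at 134.6 TPM, the highest.

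The effect of IMN differed between the genotypes at p under 0.01 for 3 of 32 members, by the interaction term of limma, where 0.78% of all genes were called lower. The term was -0.82 for Meis2, -0.98 for Ebf1 and -1.20 for Rasgrp2, with an adjusted p of 0.261 for each. Without the 8 cortex-rich WT mice it was -0.07 for Meis2, -0.32 for Ebf1 and -0.13 for Rasgrp2.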

How the results depend on the processing

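The members called at p under 0.01 depended on the setting. Between genotypes under vehicle, where 1.47% of all genes were called higher, 5 became 13 with median-of-ratios scaling (3.88% of all genes), 29 with array quality weights (3.22%), 28 in 1 fit of all 4 groups (2.76%), 0 with the cortical mean as covariate (0.125%), 0 higher in mice low in cortical genes only (0.659%), and 1 (without WT vehicle mouse 5, 0.747% of all genes) to 21 (without mouse 6, 2.74%) when 1 mouse was left out. For IMN in WT, where it was 1.35%, 3 became 21 with weights (3.18%), 22 in 1 fit (2.49%), 0 with the covariate (0.509%), 0 higher in mice low in cortical genes (1.37%) and 0 (without WT vehicle mouse 5, 0.901%) to 15 (without mouse 8, 2.37%) with 1 mouse left out. For the interaction, where 0.78% of all genes were lower, 3 became 5 with a mean of at least 1 TPM (0.955%), 0 with no filter (0.57%), 6 with median-of-ratios scaling (1.58%), 26 with weights (2.16%), 0 with the covariate (0.276%), 0 in mice low in cortical genes (0.338%) and 0 (without WT vehicle mouse 5, 0.491%) to 21 (without mouse 6, 1.84%) with 1 mouse left out. For IMN in Brd1+/- mice, leaving out 1 gave 0 to 1 (1.06% of all genes lower without Brd1+/- vehicle mouse 1). The cause was not tested. The 1 fit uses 1 variance per gene for groups that differ in spread. WT vehicle mice 6 and 8 are the only 2 of their group that were not cortex-rich.

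Mouse numbers are not said to mark litters, and 1 of 7, 2 of 8, 2 of 8 and 3 of 7 same-numbered pairs had deviations correlated over 0.1. With the number as a replicate block, the calls were 22 under vehicle (2.50% of all genes higher; 14 members and 3583 of 23200 genes past an FDR of 5%), 10 for the interaction (1.23% lower) and 3, all lower, for IMN in Brd1+/- mice (1.12% lower), where Ebf1 was -0.0656. No Brd1+/- vehicle mouse has the number 8, so in both comparisons with that group alone the block also removes the mouse numbered 8. Leaving that mouse out with no block gave 21 calls under vehicle (2.74% of all genes higher), and 0 with the same -0.0656 for Ebf1 in Brd1+/- mice.

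Directions turned as follows among the genes named for each comparison. Members not named turned too, and with median-of-ratios scaling 26 of 32 were positive between genotypes under IMN, against 21. In mice low in cortical genes only, the genotype difference under vehicle was -0.0383 for Meis2, -0.21 for Sp9, -0.14 for Six3, -0.16 for Isl1, -0.20 for Gpr6, -0.14 for Ptpn5, -0.0919 for Arpp21 and -0.12 for Tac1. Under IMN it was -0.0439 for Sp9, -0.12 for Six3, -0.0789 for Rarb, -0.15 for Ebf1, -0.11 for Gpr6, -0.0194 for Gprin3 and -0.0208 for Tac1. The IMN difference in WT was -0.21 for Sp9, -0.0776 for Six3, -0.21 for Isl1, -0.16 for Gpr6 and -0.15 for Tac1. The interaction was 0.16 for Sp9, 0.0194 for Six3, 0.24 for Isl1, 0.084 for Gpr6 and 0.10 for Tac1. With weights, the genotype difference under IMN was -0.0503 for Six3, -0.0108 for Rarb, -0.0274 for Ebf1 and -0.0308 for Gpr6. For IMN in Brd1+/- mice, Ebf1 was -0.0028 with a pseudocount of 0.1, -0.0131 with median-of-ratios scaling and -0.0041 with the covariate. With 1 mouse left out, the genotype difference under IMN ran from -0.0121 to 0.10 for Sp9, -0.081 to 0.0956 for Six3, -0.0167 to 0.20 for Eya1, -0.022 to 0.19 for Rarb, -0.11 to 0.11 for Ebf1, -0.0636 to 0.0771 for Gpr6, -0.0181 to 0.08 for Tac1, -0.32 to 0.0906 for Coch and -0.16 to 0.0148 for Actn2. For IMN in Brd1+/- mice it ran from -0.11 to 0.0024 for Sp9, -0.13 to 0.0131 for Six3, -0.0521 to 0.12 for Isl1 and -0.0656 to 0.079 for Ebf1.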

Other observations

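In Brd1+/- IMN mice 3 and 6, chosen after their values were seen, members stood at both ends of their group, at a cortical mean of 1.31 and 1.95. Coch stood at 15.6 and 29.4 TPM, Ido1 at 7.04 and 13.0 TPM, Actn2 at 43.3 and 55.3 TPM and Rasgrp2 at 64.3 and 93.1 TPM, the lowest values of their group. Six3, at 71.9 and 64.1 TPM, Zfp503, at 13.8 and 11.9 TPM, and Dclk3, a kinase, at 94.1 and 70.2 TPM, had the highest. Pdyn, the precursor of dynorphin and no member, stood at 239 and 138 TPM in these mice. In the other 6 Brd1+/- IMN mice Pdyn ran from 34.6 to 58.3 TPM.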
